A study of Mus musculus with 12 samples.

Results

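Toll-like receptors recognise conserved parts of microbes at the surface or in the endosomes of macrophages. TLR2 pairs with TLR1 to bind triacylated bacterial lipoproteins and with TLR6 to bind diacylated ones. TLR4 binds lipopolysaccharide (LPS) together with MD-2, and CD14 is the surface protein that hands LPS to that complex and also helps TLR2. The genes described here are Tlr1, Tlr2, Tlr4, Tlr6 and Cd14. They were chosen by symbol, and all 5 have a row among the 24552 rows of the count table.

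The cells were bone-marrow-derived macrophages from wild-type mice (WT) and from mice with a knockout of Gpr31b (KO), which encodes GPR31, a G protein-coupled receptor. They were left unstimulated (M0) or were stimulated with LPS and IFN-γ to a proinflammatory state (M1). This gave 4 groups, WT M0, WT M1, KO M0 and KO M1, with 3 libraries each and 12 in all. LPS is itself the ligand of TLR4 and CD14, so the M1 groups had received the ligand of a pair of the receptors described. The age and strain of the mice, the dose and duration of the stimulus and the part of Gpr31b that was removed are not stated. Since nothing in the labels ties libraries to separate animals, p-values measure only the spread between these libraries.

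Library totals ran from 372878 to 585465 counts, which is shallow for single genes. The Gpr31b row held 2 counts in each WT M1 library and 0 in the other 9, a weak check of the genotype labels. All 8 macrophage markers had counts, with summed levels of 295 to 627 CPM over the M0 libraries and 333 to 527 CPM over the M1 libraries (CPM, with library sizes scaled by TMM factors). The macrophage markers include Cd14 itself and Csf1r, whose row lies opposite an exon of Hmgxb3. The markers of neutrophils (6) and erythroid cells (3) were at 0 in every library. In dendritic cell markers, 3 of 5 had counts, and their sum went from 11.8 to 40.5 CPM in M0 to 492 to 716 CPM in M1. The Flt3 and Zbtb46 rows, which mark dendritic cells, were at 0 throughout. Fibroblast, T cell, B cell and mast cell markers summed to at most 21.3 CPM in any library.

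A strand-specific kit was used, per the labels' protocols, but the counted strand is not stated. Of matched rows with a mean of 100 or more counts, 90.7% had an exon of another gene on the opposite strand, against 12.5% of rows at 0. The Tlr1, Tlr6, Tlr2, Tlr4 and Cd14 rows had none in GENCODE M21. No opposite-strand gene ended within 5000 bases of their exons either, except the pseudogene Gm7115, whose 3′ end lies 4053 bases from Tlr2. Within 20 kb of Cd14, the opposite-strand rows Tmco6 and Ik held 3 and 55 WT M0 counts and 4 and 31 WT M1 counts. Ndufa2, on the same strand 15534 bases away, held 34 and 76. Near Tlr6, the opposite-strand Fam114a1 row held 4 WT M0 and 9 WT M1 counts. In RefSeq the Tlr6 model is longer than in GENCODE, and its far end overlaps that of Fam114a1 by 868 bases. RNA from either strand of a locus cannot be told apart in these values. They are therefore values of a row, and few counts in a row do not show that its gene was little expressed.

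Tlr1 (chromosome 5, 64924679 to 64933563, minus strand, GRCm38) and Tlr6 (chromosome 5, 64952031 to 64960097, minus strand) are neighbours, with 18467 bases between them. Their transcripts share 454 stretches of 50 bases, which is 13.63% of such stretches in Tlr1 and 12.26% in Tlr6. Reads that fall wholly in a shared stretch cannot be assigned to either gene, and how they were treated is not stated. No stretch of 50 bases was shared between Tlr1 and Tlr2 or between Tlr1 and Tlr4. The longest identical run of Tlr1 and Tlr6, 229 bases, lies in the coding part of both, at chr5:64925537-64925765 in Tlr1 and chr5:64953828-64954056 in Tlr6. It is shown, read from the GENCODE M21 transcripts, as the longest of the stretches in which these rows could exchange reads.
Tlr1 and Tlr6: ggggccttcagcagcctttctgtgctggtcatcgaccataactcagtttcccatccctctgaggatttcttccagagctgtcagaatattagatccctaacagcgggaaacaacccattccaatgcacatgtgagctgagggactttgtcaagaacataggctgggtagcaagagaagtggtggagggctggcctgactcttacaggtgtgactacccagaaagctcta

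Promoter windows of 300 bases around annotated starts, from RefSeq (GRCm38.p6), were taken for Tlr1, Tlr2 and Tlr6. No window of Cd14 or Tlr4 was taken, so the matches do not cover all the genes described. They were searched on both strands for the interferon-γ element GAS (TTCNNNGAA), the interferon-stimulated element ISRE (GAAA, any 2 bases, GAAA), the NF-κB consensus and the PU.1 element (GAGGAA). Of 32851 promoters, 8.3% held a GAS match, 3.4% an ISRE match, 4.5% an NF-κB match and 28.3% a PU.1 match. The 3 windows shown are those of Tlr1 and Tlr6 with a GAS or ISRE match, in capitals, since IFN-γ was part of the stimulus. The ISRE matches of Tlr6 overlap each other. The other Tlr1 window held a PU.1 match only, and the Tlr2 window held NF-κB matches only. A match is a match of letters and does not show binding.
Tlr1, chr5:64932650-64932949, minus strand: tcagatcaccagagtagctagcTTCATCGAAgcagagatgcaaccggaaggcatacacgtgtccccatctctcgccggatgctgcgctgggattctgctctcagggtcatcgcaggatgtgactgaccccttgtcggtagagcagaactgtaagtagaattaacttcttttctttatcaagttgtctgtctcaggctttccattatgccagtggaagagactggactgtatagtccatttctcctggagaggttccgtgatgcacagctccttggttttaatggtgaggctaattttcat
Tlr6, chr5:64959117-64959416, minus strand: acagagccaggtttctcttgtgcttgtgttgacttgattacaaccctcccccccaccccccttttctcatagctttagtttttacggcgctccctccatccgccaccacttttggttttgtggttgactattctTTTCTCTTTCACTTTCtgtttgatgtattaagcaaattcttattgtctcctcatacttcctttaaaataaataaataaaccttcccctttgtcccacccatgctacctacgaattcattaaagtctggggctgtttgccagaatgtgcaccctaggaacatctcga
Tlr6, chr5:64959999-64960298, minus strand: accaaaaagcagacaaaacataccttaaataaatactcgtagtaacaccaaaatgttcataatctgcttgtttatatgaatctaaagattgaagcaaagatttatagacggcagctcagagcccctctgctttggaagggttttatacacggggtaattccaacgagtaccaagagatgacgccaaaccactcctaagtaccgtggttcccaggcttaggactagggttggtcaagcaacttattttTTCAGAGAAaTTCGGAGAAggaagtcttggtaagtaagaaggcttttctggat

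The first question was how the rows of the bacterial lipoprotein receptors changed with LPS and IFN-γ. The Tlr1 row rose from few or no counts to 36 to 118 per library, the Tlr6 row rose to 2 to 15, and the Tlr2 row was too low to test. In WT M0 all 3 libraries held 0 counts of Tlr1, and the WT M1 libraries held 118, 65 and 76, which is 237, 196 and 253 CPM. Every WT M1 library thus lay far above every WT M0 library. Against a limit of 3 counts over the WT M0 group the WT M1 level, taken as exact, was 120-fold higher. With counting error in both groups, the exact interval of the ratio began at 97.2. These values cover counting error only and take counts as independent. The rise was called by the edgeR quasi-likelihood test (adjusted p = 2.3e-11, Benjamini-Hochberg over 2333 rows). In bulk RNA, more cells with a transcript and more RNA per cell cannot be told apart.

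In knockout cells the KO M0 libraries held 6, 0 and 0 counts of Tlr1 and the KO M1 libraries 50, 36 and 76. In CPM these were 11.8, 0 and 0 against 149, 94.8 and 192, again with no overlap. The log2 fold change was 5.09 with a standard error of 0.56 (95% interval 3.95 to 6.23, edgeR adjusted p = 6.66e-09). It rests in part on the first KO M0 library, which held all 6 counts: without it the fitted value was 8.99, still called. KO M0 was then at 0 counts, so the size of 8.99 depends on the prior count, a small count that edgeR adds.

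Tlr6 had far fewer counts. The WT M0 libraries held 0 and the WT M1 libraries 7, 2 and 12, or 14.1, 6.04 and 39.9 CPM. Each WT M1 library lay above each WT M0 library, but the spread among them was nearly as large as their mean (20 ± 17.7 CPM, SD, n = 3). Against 3 counts over WT M0 the WT M1 level, taken as exact, was 9.76-fold higher (edgeR adjusted p = 0.0022). With counting error in both groups, the exact interval of the ratio began at 7.26.

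The KO M0 libraries held 2, 0 and 0 counts of Tlr6, and the KO M1 libraries 10, 3 and 15. In CPM the KO M1 libraries were at 29.7, 7.9 and 37.8, and the first KO M0 library at 3.92, so the groups did not overlap. The log2 fold change was 3.98 with a standard error of 1.22 (edgeR adjusted p = 0.00762). Without the third KO M1 library it was 3.56 and was no longer called (adjusted p = 0.0542). Averaged over both genotypes the log2 change was 5.06 with a standard error of 1.01 (edgeR adjusted p = 7.25e-05). It was called without any one of the 12 libraries, at edgeR adjusted p of 3.88e-05 to 0.000884. Its size depends on the prior count, since WT M0 held 0 counts.

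Tlr2 (chromosome 3, 83836272 to 83841767, minus strand), the shared partner of both receptors, held 0 to 2 counts in every library. By group they summed to 1 (WT M0), 3 (WT M1), 2 (KO M0) and 2 (KO M1). The row was too low for the main test. Over both genotypes the M1 level was 2.29 times the M0 level, with an exact 95% interval for counting error of 0.445 to 14.7. These few counts leave room for changes within this interval, in either direction.

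**Figure D1:**
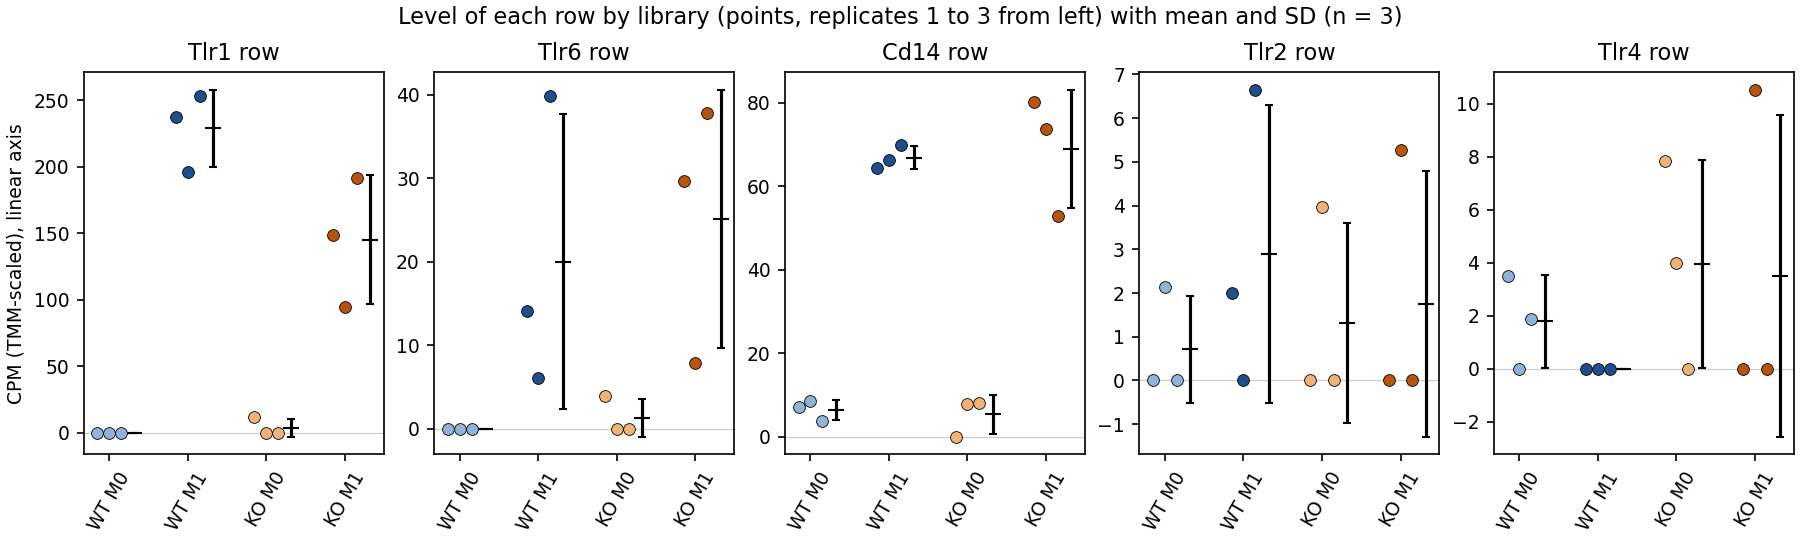
CPM of the Tlr1, Tlr6, Cd14, Tlr2 and Tlr4 rows in each library (points) with the mean and SD of 3 libraries (bars), on a linear axis that differs between panels. The M1 libraries lie above the M0 libraries of both genotypes for Tlr1, Tlr6 and Cd14, while Tlr2 and Tlr4 hold at most 10.5 CPM in any library.

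Of the rows of the LPS receptors, Cd14 rose in both genotypes and Tlr4 was too low to test. Cd14 (chromosome 18, 36725067 to 36726798, minus strand) held 4, 4 and 2 counts in the WT M0 libraries and 32, 22 and 21 in WT M1, or 7, 8.53 and 3.75 against 64.3, 66.5 and 69.9 CPM. The WT M1 libraries differed little from each other (66.9 ± 2.8 CPM, SD, n = 3) and lay above all WT M0 libraries. The log2 fold change was 3.33 with a standard error of 0.61 (95% interval 2.10 to 4.57, edgeR adjusted p = 2.74e-05).

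In KO M0 the Cd14 row held 0, 4 and 4 counts, and in KO M1 27, 28 and 21, or 80.2, 73.7 and 53 CPM. All KO M1 libraries lay above all KO M0 libraries, which reached at most 8.14 CPM. The log2 fold change was 3.62 with a standard error of 0.63 (edgeR adjusted p = 1.29e-05).

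Tlr4 (chromosome 4, 66827584 to 66930284, plus strand), which signals for LPS, held few counts in both states. The WT M0 libraries held 2, 0 and 1, the WT M1 libraries 0 each, the KO M0 libraries 4, 2 and 0, and the KO M1 libraries 0, 4 and 0. The libraries of M0 and M1 overlapped in both genotypes, and all KO M1 counts came from 1 library. Over both genotypes 9 counts in M0 and 4 in M1 gave a ratio of 0.611, with an exact 95% interval for counting error of 0.137 to 2.19. With no filter on low rows, the edgeR log2 change averaged over genotypes was −1.57 (adjusted p = 0.508). So few counts leave room for any change within the counting interval of 0.137 to 2.19.

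Of the 5 rows, 3 passed the filter on low counts: Tlr1, Tlr6 and Cd14. All 3 were called higher in M1 in wild type, where 25.7% of tested rows were called higher, 23.1% lower and 48.8% in all. They were called higher in knockout too, where 25.2% were called higher, 22.4% lower and 47.6% in all. For the mean of both genotypes, 31.2% were called higher, 30% lower and 61.2% in all. Tlr1 and Tlr6 had no counts in WT M0, and Cd14 too was under the filter's minimum count of 10 in every M0 library. All 3 rows thus passed the filter through their M1 counts, so this count is a description and not support for a rise of the group. Libraries of M0 and M1 did not overlap for any of the 3 in either genotype. The same held for 56.2% of tested rows in wild type and 55.3% in knockout. Scaling by library size alone gave 397 higher and 881 lower calls in wild type, against 600 and 538 with TMM. In knockout it gave 393 and 850, against 588 and 522. The median log2 change of all rows was then −0.535 in wild type and −0.463 in knockout, against −0.03 and 0.01 with TMM, so changes here are relative to the TMM scale. The 3 rows were called higher on either scale.

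**Figure D2:**
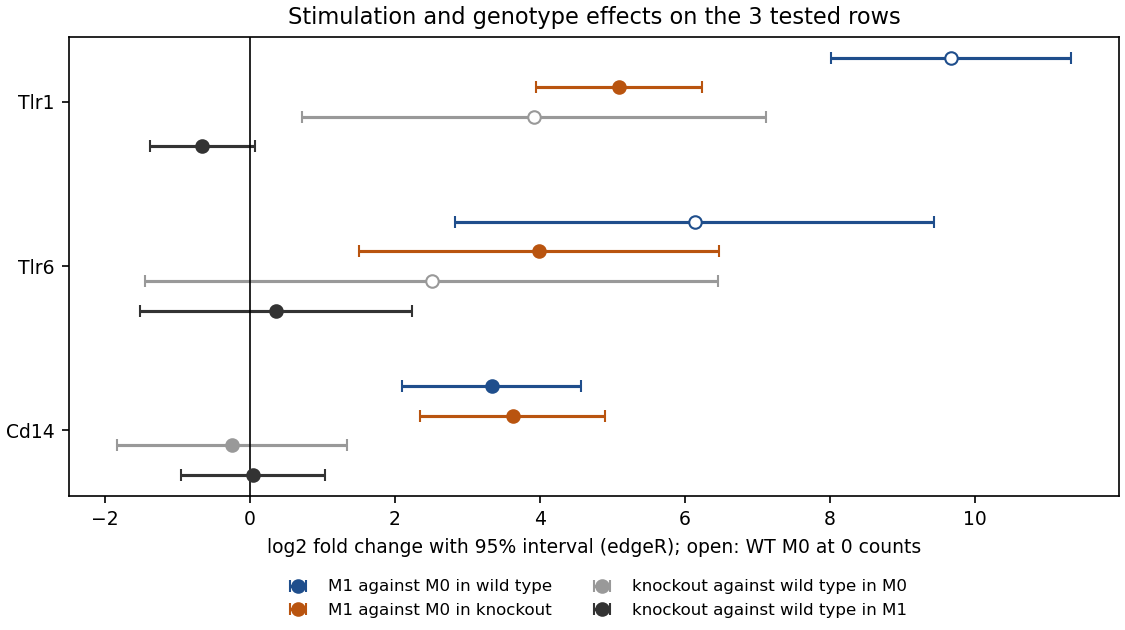
Log2 fold changes of Tlr1, Tlr6 and Cd14 with 95% intervals from the edgeR model of all 12 libraries, for stimulation in each genotype and for knockout against wild type in each state. The stimulation intervals lie above 0 for the 3 rows in both genotypes; open points have no counts in WT M0, so their fitted size depends on the prior count and is not a bound.

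The responses were then set against that of Tlr4 within each library, as log2 of the ratio of the row to Tlr4 with 2 CPM added to each. For Tlr1 this ratio averaged −0.80 (WT M0) and 6.84 (WT M1) in wild type and −0.36 (KO M0) and 5.26 (KO M1) in knockout. Averaged over genotypes, Tlr1 rose by 6.64 more than Tlr4 on this log2 scale. Cd14 rose by 3.93 more than Tlr4, with ratios of 5.05 to 5.17 in WT M1 and 2.60 to 5.36 in KO M1. Tlr6 rose by 3.68 more than Tlr4. In the second KO M1 library, where all KO M1 counts of Tlr4 lay, the Tlr6 ratio was −0.34, inside the range of M0. The sizes depend on the CPM added, since Tlr4 was near 0. With 0.5 CPM they were 9.04 for Tlr1, 5.19 for Cd14 and 6.003 for Tlr6, and with 5 CPM 5.204, 3.11 and 2.41. Tlr1, Tlr6 and Cd14 were chosen as induced genes to set against Tlr4, so these differences are a description with no test.

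By the ratio of summed counts the Tlr6 estimate was above that of Cd14, but Tlr6 held 2 counts in M0, so their order is open. Over both genotypes the M1 to M0 ratio was 96.4 for Tlr1, with an exact 95% interval of 43.9 to 264. It was 33.7 for Tlr6 (8.83 to 286) and 11.5 for Cd14 (7.05 to 20). The intervals of Tlr1 and Cd14 do not overlap each other, and that of Tlr6 overlaps both. These intervals cover counting error only. Of the 22 counts from 1 to 12 in these 5 rows, 17 were even, against 60.9% in the whole table, so counts may not be independent. With counts halved and rounded up, the intervals were 32.6 to 472 for Tlr1, 5.87 to 1460 for Tlr6, 5.88 to 26.7 for Cd14 and 0.0523 to 3.36 for Tlr4.

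**Figure D3:**
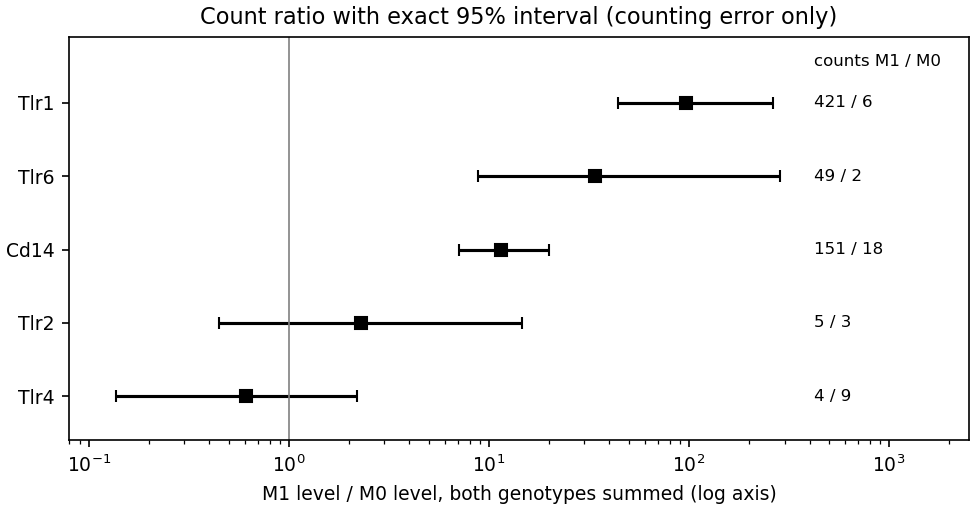
Ratio of the M1 to the M0 level for each row, summed over both genotypes and scaled by TMM library size, on a log axis with exact 95% intervals for counting error. The intervals of Tlr1, Tlr6 and Cd14 lie above 1, and those of Tlr2 (5 counts in M1 and 3 in M0) and Tlr4 (4 and 9) include 1.

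Levels were compared between genes per kilobase of GENCODE M21 exon. In WT M1, Tlr1 stood highest at 68.4 ± 8.72 CPM per kb (SD, n = 3), above Cd14 at 38.6 ± 1.62, and the libraries of these rows did not overlap. Tlr6 followed at 5.37 ± 4.75 CPM per kb, below every Cd14 library. Tlr2 was at 0.958 ± 1.13 CPM per kb, and its highest library (2.21) reached above the lowest of Tlr6 (1.62). Tlr4 was at 0. In KO M1, Tlr1 (43.3 ± 14.5 CPM per kb) and Cd14 (39.8 ± 8.22) overlapped, and Tlr6 was again lower at 6.75 ± 4.16.

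Tlr6 and Tlr1 were further compared as shares of their joint count in each M1 library. Tlr6 made up 5.6%, 2.99% and 13.6% of the joint count in the WT M1 libraries and 16.7%, 7.69% and 16.5% in KO M1. The exact (Clopper-Pearson) 95% intervals were wide, for example 2.28% to 11.2% in the first WT M1 library and 8.29% to 28.5% in the first KO M1 library. The mean share was 7.4 ± 5.53% in wild type and 13.6 ± 5.15% in knockout (SD, n = 3 each). The exact two-sided permutation test gave p = 0.2, but with 3 against 3 it cannot go below 0.1. The difference of 6.23 percentage points is therefore a description.

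The second question was whether loss of Gpr31b changed these rows. In stimulated cells Tlr1 was at 229 ± 29.2 CPM in wild type and 145 ± 48.6 CPM in knockout (SD, n = 3 each). Each KO M1 library (94.8 to 192 CPM) lay below each WT M1 library (196 to 253 CPM). These groups did not overlap, in either direction, in 10.8% of all tested rows. On library size alone the highest KO M1 library (167 CPM) overlapped the lowest WT M1 library (164.5 CPM). The log2 fold change was −0.66 with a standard error of 0.35 (95% interval −1.38 to 0.07), and it was not called (edgeR adjusted p = 0.796). From counts alone the KO M1 level was 0.635 times that of WT M1, with an interval of 0.518 to 0.775, which leaves out the spread between libraries.

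Cd14 levels in M1 were 66.9 CPM in wild type and 69 CPM in knockout, with a log2 fold change of 0.04 (95% interval −0.95 to 1.04, edgeR adjusted p = 0.996). For Tlr6 the same difference was 0.36 (95% interval −1.52 to 2.24, edgeR adjusted p = 0.98). The intervals leave room for a change of about a doubling in Cd14 and more in Tlr6, so equality is not shown. No row of the table was called by edgeR between the genotypes in M1 (0 of 2333, 0%), although 164 (7.03%) had an unadjusted p under 0.05. DESeq2 and limma-voom also called 0.

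In unstimulated cells the Tlr1 difference rested on the 6 counts of the first KO M0 library. Its fitted log2 change was 3.92 (95% interval 0.72 to 7.12, edgeR adjusted p = 0.629), and without that library both groups were at 0. Since WT M0 held 0 counts, this size too depends on the prior count, and limma-voom gave 1.29. Cd14 held 10 counts in WT M0 and 8 in KO M0 (log2 fold change −0.25, 95% interval −1.83 to 1.34, edgeR adjusted p = 1). Of all tested rows 1, Perm1, was called by edgeR (0.0429%), with 151 (6.47%) at an unadjusted p under 0.05 and 0 called by DESeq2 and limma-voom.

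The interaction asks whether stimulation acted differently in the genotypes. For Tlr1 it was −4.57 on the log2 scale (95% interval −7.86 to −1.29), a smaller fitted rise in knockout, with an adjusted p of 0.605 by edgeR. Without the first KO M0 library it was −0.67. The interaction was −2.15 for Tlr6 (95% interval −5.99 to 1.69) and 0.29 for Cd14 (95% interval −1.57 to 2.15). Since WT M0 held no counts of Tlr1 or Tlr6, the sizes and intervals of their interactions depend on the prior count. By limma-voom these interactions were −1.996 for Tlr1 and −0.389 for Tlr6, and neither was called. By edgeR 0 of 2333 rows (0%) were called, 144 (6.17%) had an unadjusted p under 0.05, and DESeq2 and limma-voom called 0.

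The other genes of the pathway mostly had too few counts. Of 60 genes listed, 54 had any count and 10 passed the filter. In wild type 6 of these 10 rose, 1 fell and 3 were not called, with a median log2 change of 1.10 against −0.03 over all tested rows, of which 25.7% rose and 23.1% fell. In knockout 7 rose, 1 fell and 2 were not called, with a median of 1.16 against 0.01 over all tested rows, of which 25.2% rose and 22.4% fell. Of the 10 rows, 5 lie opposite an exon of another gene. A row low in M0 could pass the filter through its M1 counts alone. Among the rows that rose in wild type, Irf7, Itgb2 and Pik3ap1 averaged 0, 13.8 and 14.6 CPM in WT M0. These numbers of calls and medians are therefore a description and not support for a rise of the pathway.

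Among other receptors none could be tested. Tlr8, an endosomal receptor, held 13 (M0) and 10 (M1) counts in wild type and 12 and 4 in knockout. Tlr9, which senses unmethylated CpG DNA, held 1 and 6 in wild type and 4 and 11 in knockout. Over both genotypes the M1 to M0 ratio of Tlr9 was 4.67 (exact 95% interval for counting error 1.65 to 16.2). Tlr13, a mouse sensor of bacterial ribosomal RNA, held 4 and 5 counts in wild type and 10 and 2 in knockout, and Tlr7 4 and 3, and 6 and 2. The same ratio was 0.769 for Tlr8 (0.37 to 1.54), 0.687 for Tlr13 (0.235 to 1.82) and 0.687 for Tlr7 (0.184 to 2.21). These intervals include 1. Tlr3 and Tlr5 held 2 counts each in all, and Tlr11 and Tlr12 none.

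Of the co-receptors, both integrin chains of complement receptor 3 rose. Itgam went from 29.7 ± 9.17 to 69.1 ± 38.5 CPM in wild type (log2 change 1.21 with a standard error of 0.49, edgeR adjusted p = 0.04) and from 12.6 ± 6.33 to 61.7 ± 22.6 CPM in knockout (2.27, standard error 0.54, adjusted p = 0.000771). Itgb2 changed by 2.15 in wild type (standard error 0.60) and 1.62 in knockout (standard error 0.60), both called by edgeR. Cd36, a scavenger receptor that works with TLR2 and TLR6, was not tested, with 27 and 8 counts in wild type and 20 and 10 in knockout. Cd180, a TLR4-related receptor whose row lies opposite an exon of Mast4, held 0 and 8, and 5 and 11. Ly96, which encodes MD-2, held 1 count in all, Ly86 2 and 4 counts in wild type and 4 and 0 in knockout, and Lbp none.

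Further downstream, the Irf7 row, opposite an exon of Phrf1, rose from 0 to 135 counts in wild type (edgeR adjusted p = 2.7e-06). The exact interval for counting error of this M1 to M0 ratio began at 50.3. In knockout the Irf7 row went from 12 to 105 counts (log2 fold change 3.53, standard error 0.71). Irf7 encodes a transcription factor of endosomal receptor signalling that is also an interferon target. Pik3ap1, an adaptor that links receptors to PI3K, changed by 1.99 in wild type and 2.32 in knockout (standard errors 0.54 and 0.55). Cnpy4, related to the receptor chaperone Cnpy3, fell from 60 to 0 counts in wild type (edgeR adjusted p = 2.02e-05). The exact interval for counting error of this M1 to M0 ratio ended at 0.0884. In knockout the Cnpy4 row fell from 73 to 6 counts. Myd88, the shared adaptor, held 0 to 8 counts per group and could not be tested.

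**Figure D4:**
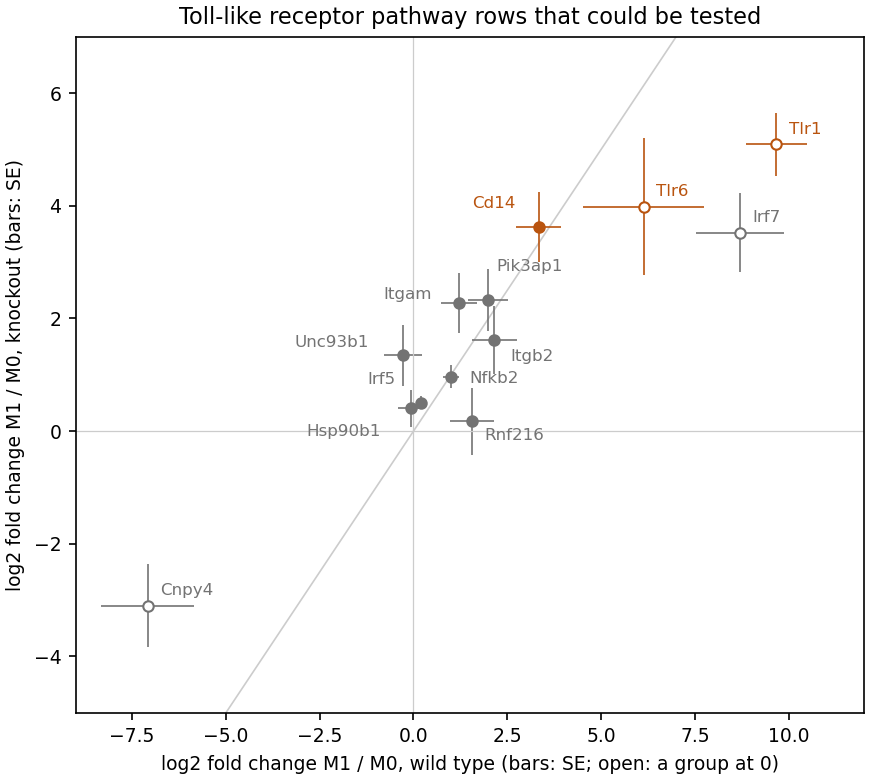
Log2 fold change of M1 against M0 in wild type (x axis) and knockout (y axis), with standard errors, for the 10 testable pathway rows (grey) and for Tlr1, Tlr6 and Cd14 (orange). The grey line marks equal change; open points have a group without counts in wild type (Tlr1, Tlr6, Irf7 and Cnpy4), so their wild-type size depends on the prior count.

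Rows with a similar course were named by Pearson's r of log2 CPM over the 12 libraries, given as a description. The likeness mostly follows the split between M0 and M1, and 304 rows reached 0.9 with Tlr1, 34 with Tlr6 and 264 with Cd14. Closest to Tlr1 were Klf3 (r = 0.988), Hk3 (0.986), Kcnh4 (0.984) and Dmtf1 (0.983). Klf3, which encodes a repressor of the Krüppel-like family, is also on chromosome 5, on the plus strand, and its 3′ end lies 91778 bases from Tlr1. No row of the table lies between them in GENCODE M21. Klf3 held 29 (M0) and 641 (M1) counts in wild type and 38 and 594 in knockout, and an exon of Gm20033 lies opposite it. Among the closest to Tlr6 were Nelfcd (0.945), Kcnh4 and Dennd2d (0.942 each). Of these, Hk3, Dmtf1 and Dennd2d lie opposite an exon of another gene (Unc5a, Tmem243 and Cept1), and Kcnh4 does not. Nelfcd has no such exon either, but the 3′ end of the opposite-strand gene Ctsz lies 547 bases from its exons.

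Closest to Cd14 were Xcr1 (0.988), B2m (0.984), the light chain of MHC class I, Apobr (0.982) and Parp9 (0.978). Apobr lies opposite exons of Cln3 and Il27 and Parp9 opposite an exon of Dtx3l, while Xcr1 and B2m have no such exon. Xcr1 encodes a chemokine receptor that marks a class of dendritic cells, and its row held 42 and 662 counts in wild type and 33 and 656 in knockout. It made up most of the dendritic cell sum given above. The part of other cell types in the rise of Cd14 was not tested.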

How the data were processed

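RNA of 12 libraries was sequenced with a strand-specific TruSeq mRNA kit, per the labels' protocols. What the authors deposited is one table of raw counts, whole numbers by gene symbol and library, per the file headers. The submitters' processing notes list HTSeq, Trimmomatic, FastQC and DESeq2, without versions, and the build mm10. The aligner, annotation and strand setting are not given in the sources used here. Of the symbols, 26 had become dates and 2 were repeated; these rows stayed in the library sizes. Low rows were removed with filterByExpr (minimum count 10), which left 2333 rows. Counts were tested with edgeR 4.0.16 (TMM factors, robust quasi-likelihood, all 12 libraries) under R 4.3.3, and rows were called at an adjusted p under 0.05. Standard errors were worked back from the test statistic. DESeq2 1.42.0 and limma 3.58.1 (voom) were alternatives. Count ratios have exact conditional binomial intervals from SciPy 1.17.1. The share of Tlr6 was tested by exact permutation of M1 libraries between genotypes. Positions come from GENCODE M21 (GRCm38, the assembly that mm10 also names), where an opposite-strand exon overlaps by 20 bases or more. The tests were checked on simulated data. Named rows were the 5 genes, genes within 20 kb, the 4 rows most like Tlr1, Tlr6 and Cd14, receptors and co-receptors of the pathway list with any count, and the largest called changes of that list, up to 3 in each direction. Lbp, Tlr11, Tlr12, Myd88 and Perm1 are named beside these. A row like Tlr6 that the rule also names is not reported here. The genes and lists were chosen with earlier results of these data known.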

Additional observations from a re-analysis of the deposited data

How the results depend on the processing

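The M1 calls of Tlr1 and Cd14 held in both genotypes under every alternative run, and so did those of Tlr6 except without KO M1 replicate 3. Without single libraries the log2 change of Tlr6 in knockout ran from 3.49 to 6.47. The highest value came without KO M0 replicate 1, where KO M0 was at 0 counts and the size depends on the prior count. Between genotypes in M0 the table held 1 called row with edgeR. It held 0 with library size alone, DESeq2, limma-voom, only the groups compared or counts halved, 5 with a minimum count of 3, 4 with no filter, and 0 to 2 without single libraries. In M1 it held 0 to 1 without single libraries. For the interaction, 6 rows were called with a minimum count of 3, 3 with no filter, and 0 to 3 without single libraries. The cause was not tested. Genotype values changed sign without single libraries for Cd14 in M0 (−0.69 to 0.29) and M1 (−0.10 to 0.20) and for Tlr6 in M1 (−0.080 to 1.22). The interaction did so for Tlr6 (−2.63 to 0.35) and Cd14 (−0.25 to 0.73). Halving counts was chosen after seeing the data. With halved counts, or with only the groups compared, the Tlr6 row was too low to be fitted for stimulation.

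Same-numbered libraries share only a number: their deviations correlated at 0.0413 to 0.12 between states of a genotype, and all 12 correlated best with their own number, a hint from the data; between genotypes 2 of 6 did in M0 and 3 of 6 in M1. With the replicate block 1113 rows were called for wild-type stimulation, 1102 for knockout, 0 between genotypes in M0 and 3 for the interaction. The block kept the 3 genes called in both genotypes. At 0 to 15 counts per library, Tlr2, Tlr4 and Tlr6 are limited most by their few counts. Why these are few was not tested.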

Other observations

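The first KO M0 library was the only M0 library with counts in the Tlr1 row (6) and the Tlr6 row (2), while its Cd14 row was at 0 and its Tlr4 row held 4. It was compared with other M0 libraries after these values were seen. Of 45 other rows called higher by stimulation in wild type and chosen for having no counts in WT M0, 9 had a count in this library, 8 in the second and 5 in the third KO M0 library. Their summed level there was 39.2, 49.6 and 26.5 CPM, against 3750 to 4670 CPM in the M1 libraries. The strongly induced Mir6381 row, opposite an exon of Gbp2, was at 116 CPM in the first KO M0 library and at 108 to 202 CPM in the other M0 libraries, and the Cxcl9 row was at 0 in all 6.

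Rows with neither an opposite-strand exon nor a nearby opposite 3′ end were ranked by their M1 counts. Among the 3544 of them with counts in M1, Tlr1 came 26th with 421 counts, Cd14 77th with 151, Tlr6 293rd with 49 and Tlr4 1999th with 4.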
